A study of Mus musculus with 12 samples.

Results

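The semaphorin, plexin, neuropilin, Eph receptor, ephrin, netrin and UNC5 receptor genes were examined in mouse hearts that had or had not undergone ischemia-reperfusion (IR), with or without overexpression of Slit2. The genes were chosen by symbol alone, as every protein-coding gene named as a member of 1 of these 7 families, which gave 60 of 22027 protein-coding genes and of 52858 genes in all. They comprised 20 semaphorins, 9 plexins, 2 neuropilins, 14 Eph receptors, 8 ephrins, 3 netrins and 4 UNC5 receptors. Their levels are given as FPKM, the fragments scaled to gene length and sequencing depth, so that levels of different genes can be compared per length.

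Hearts of adult male mice were taken out and perfused through the aorta with buffer in a Langendorff apparatus, and RNA of the heart was sequenced in 12 libraries. C57-non-IR hearts came from C57BL/6J mice and were perfused without interruption, and C57-IR hearts from the same strain underwent global ischemia without flow and then reperfusion. Slit2-non-IR and Slit2-IR hearts came from Slit2-Tg mice and were treated in the same ways. Each group held 3 hearts, and the same libraries entered several comparisons, which are therefore not independent of each other. Slit2-Tg mice carry a full-length human Slit2 cDNA driven by the CMV promoter, which is active in many tissues and cell types, and the construct was injected into C57 × CBA F1 oocytes, with C57BL/6J given as the background strain. The transgene is a human cDNA, and whether its reads were counted on the mouse Slit2 gene was not tested. The row of the mouse gene held 0.0847 to 0.813 FPKM in the 6 Slit2-Tg libraries and 0.18 to 0.282 FPKM in the 6 C57BL/6J libraries, so it shows no rise shared by the Slit2-Tg libraries and does not check the labels.

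These families hold cues that attract or repel growing axons, or receptors of such cues. Semaphorins bind plexins, and the secreted class 3 semaphorins do so mostly together with neuropilins, which also take part in the signalling of vascular endothelial growth factors. Ephrins are held on the surface of a cell, the A type by a lipid anchor and the B type by a membrane-spanning segment, and activate Eph receptor tyrosine kinases on the neighbouring cell. Netrins are secreted and act through DCC, neogenin and the UNC5 receptors, and Slit2 itself is a ligand of the Robo receptors, a separate family of guidance receptors. In the cardiovascular system the same genes are known for the patterning of vessels, the outflow tract and the cardiac nerves, and Ephb4 and Efnb2 are classical markers of venous and arterial endothelium.

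The sequences around the start sites of 3 genes are shown here because Sema4c and Ephb4 were the 2 family members that passed the adjusted test for IR and Epha2 had the lowest unadjusted p for IR in Slit2-Tg hearts. Each window is the RefSeq sequence of GRCm38.p6 from 250 bases before to 50 bases after a start site, 300 bases in all, written 5′ to 3′ on the strand of the gene. Sema4c had 2 windows on the minus strand, at chr1:36558332-36558631 (upstream) and chr1:36557508-36557807 (downstream), and Ephb4 and Epha2 had 1 each on the plus strand, at chr5:137349859-137350158 and chr4:141300971-141301270. Capitals mark a match of the AP-1 letters TGANTCA in Sema4c and of the cyclic AMP response element (CRE) letters TGACGTCA in Epha2.
Sema4c upstream: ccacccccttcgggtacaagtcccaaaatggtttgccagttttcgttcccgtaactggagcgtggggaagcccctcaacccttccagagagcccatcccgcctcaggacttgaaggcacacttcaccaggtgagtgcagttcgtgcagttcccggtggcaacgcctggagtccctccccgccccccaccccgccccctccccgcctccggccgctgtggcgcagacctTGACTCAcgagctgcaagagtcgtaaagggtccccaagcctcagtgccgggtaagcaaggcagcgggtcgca
Sema4c downstream: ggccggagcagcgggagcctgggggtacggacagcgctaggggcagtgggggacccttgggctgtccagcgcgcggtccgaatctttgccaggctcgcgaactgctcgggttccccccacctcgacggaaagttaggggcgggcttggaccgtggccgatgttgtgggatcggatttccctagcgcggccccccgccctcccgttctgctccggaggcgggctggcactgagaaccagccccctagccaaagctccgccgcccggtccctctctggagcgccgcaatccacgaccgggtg
Ephb4: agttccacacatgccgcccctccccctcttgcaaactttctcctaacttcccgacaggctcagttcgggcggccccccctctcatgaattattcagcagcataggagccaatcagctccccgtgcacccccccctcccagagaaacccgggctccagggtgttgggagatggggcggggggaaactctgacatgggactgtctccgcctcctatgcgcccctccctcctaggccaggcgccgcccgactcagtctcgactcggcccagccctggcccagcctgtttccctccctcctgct
Epha2: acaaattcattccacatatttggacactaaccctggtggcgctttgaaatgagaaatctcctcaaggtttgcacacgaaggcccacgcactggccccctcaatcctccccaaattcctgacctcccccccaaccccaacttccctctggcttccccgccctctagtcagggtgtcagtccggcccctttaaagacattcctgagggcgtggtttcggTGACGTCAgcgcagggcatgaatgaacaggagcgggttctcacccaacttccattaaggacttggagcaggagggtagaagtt
The AP-1 letters began 22 bases before the upstream start site of Sema4c, and the CRE letters began 33 bases before that of Epha2. The windows of Ephb4 and the downstream window of Sema4c held none of the 4 motifs searched. The last 25 bases of the upstream Sema4c window were in 0 of 8 GENCODE transcripts of the gene, and those of the downstream window were in 2 of 8. A match of letters is not evidence of binding, and no binding was measured.

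Promoter entries were found for 52 of the 60 genes, 66 windows in all, and both strands were searched for 4 short motifs of factors known to act in stressed cells. AP-1 letters TGANTCA were in 4.55% of the family windows, in Sema4c, Sema4d and Sema6b, and in 7.81% of all 32851 promoter windows of the table. CRE letters TGACGTCA were in 1.52% of the family windows and 1.79% of all windows, and heat shock letters GAANNTTC were in 1.52%, a window of Epha6, and 7.86%. Hypoxia response letters ACGTG were in 18.2% of the family windows, spread over 11 genes, and in 19.6% of all windows. The AP-1 and CRE letters differ at the centre and could not match at the same bases, whereas the hypoxia letters may match the same site on both strands.

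Between 16601154 and 24841291 reads lay on genes in each library, as recovered from the FPKM values, and every pair of libraries of a group differed by more than counting noise. Cardiomyocyte markers (8 genes, among them Myh6 and Tnnt2) summed to between 14887 and 22719 FPKM, and none of them was below the filter. Slit2-IR replicate 1 stood apart through a sum of 7 atrial genes of 1758 FPKM, against 26.6 to 246 FPKM in the other 11 libraries, so results that rest on it are given with and without it. C57-IR replicate 2, at 246 FPKM, also held atrial transcripts, with 108 FPKM of Myl7 and 19.5 of Sln. The remaining libraries held at most 12.5 and 1.55 FPKM of these genes. Values without C57-IR replicate 2 are given only where it is named. Immediate early and heat shock genes, such as Fos and Hspa1a, summed to 949 to 1017 FPKM without IR and 2534 to 4531 after IR in C57BL/6J hearts, and to 580 to 1383 and 2766 to 4836 in Slit2-Tg hearts, and 8 of the 11 passed the adjusted test for IR over both genotypes. Since the RNA is that of whole tissue, fewer cells of a type and less RNA per cell cannot be told apart in any value that follows.

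Of the 60 genes, 33 had a mean of at least 1 FPKM over the 12 libraries, 9 of at least 10 FPKM, and 49 passed the filter on low values and were tested. The most abundant was the ligand Efnb3, a transmembrane ephrin, at 28.9 FPKM on average and 20.2 to 41.6 over the libraries. It was followed by Sema7a, a lipid-anchored semaphorin, at 21.5 FPKM, and then by the receptors Plxnb2 (18.8), Ephb4 (18.7) and Plxnd1 (18.3), by Ntn1 (14.8), Nrp1 (13.5) and the ephrins Efnb1 (13.3) and Efna1 (11.9). The ranges of these 9 genes over the libraries overlapped between each gene and the next in the order. Neighbours were not compared within libraries, so the order was not tested. Efnb3 lay at the 91.4th percentile of the mean levels of the 15240 tested genes and Efna1 at the 80.2nd percentile.

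**Figure D1:**
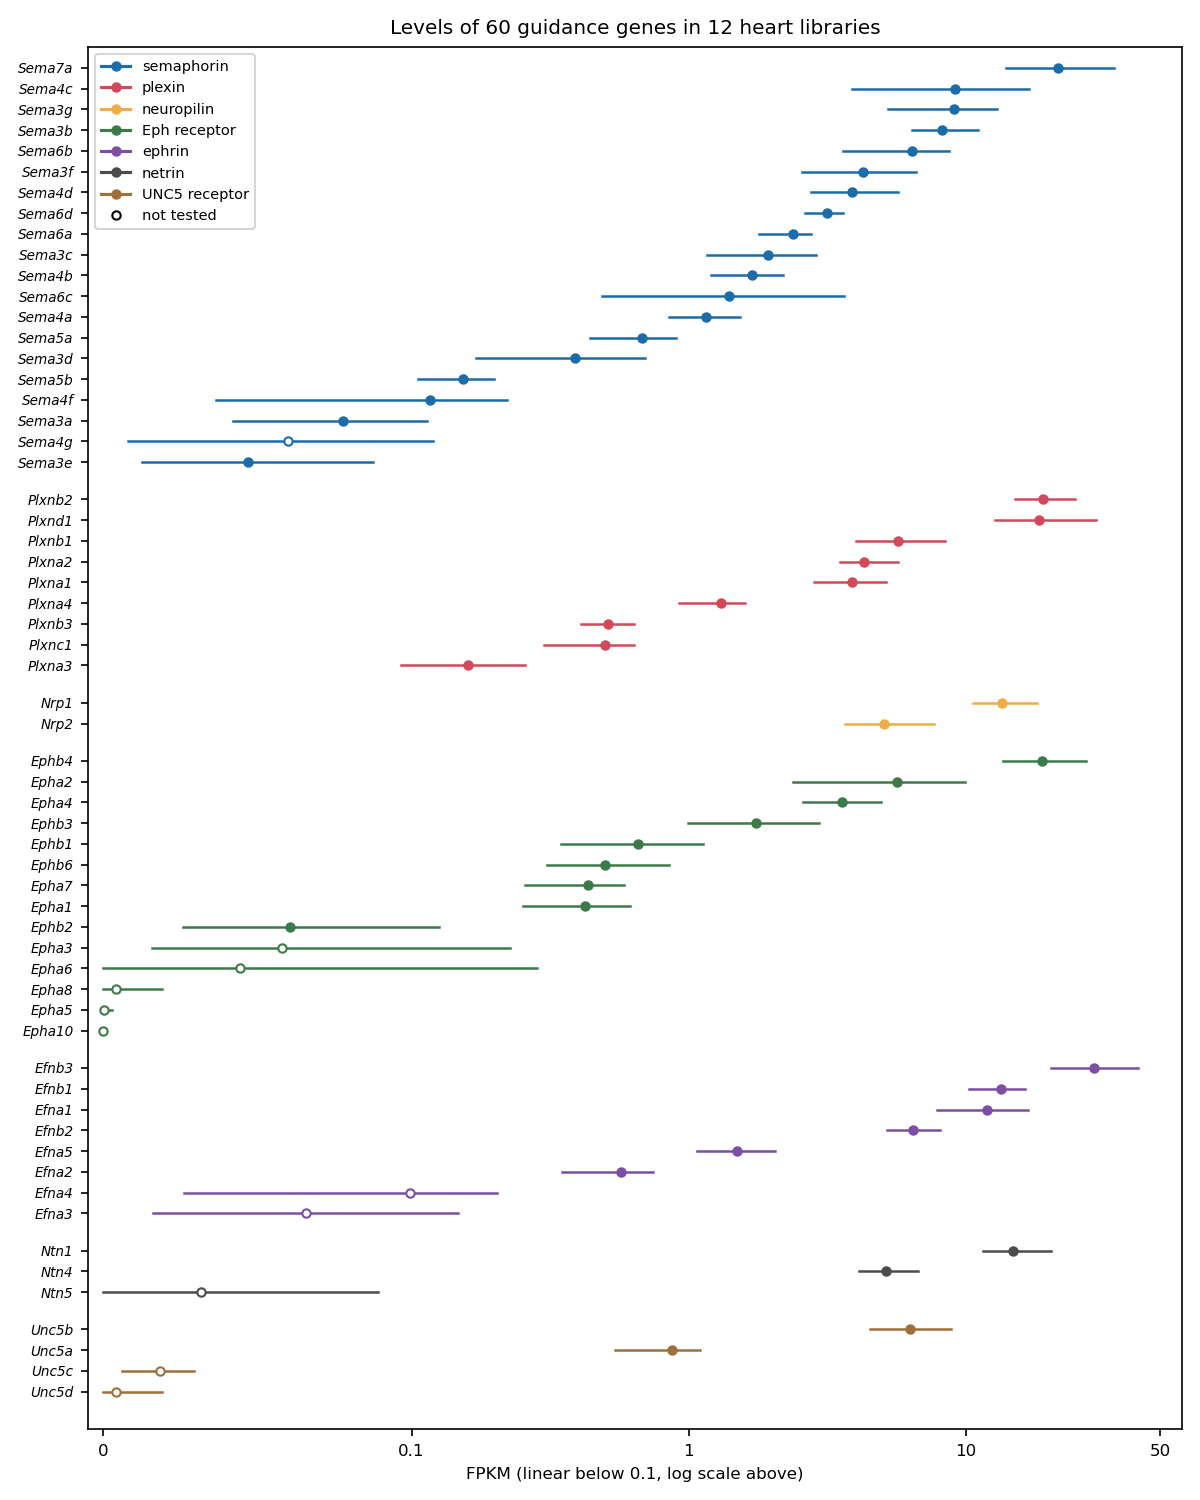
Level of each of the 60 genes in FPKM (horizontal axis, linear below 0.1 and logarithmic above), grouped by family. Points are means and lines the lowest to highest of 12 libraries, and open points mark the 11 genes below the filter; Efnb3 had the highest mean, 28.9 FPKM, and Epha10 had no read in any library.

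Among the 20 semaphorins, which are the ligands of the plexins, 13 averaged at least 1 FPKM. Sema4c (9.14 FPKM) is a transmembrane semaphorin that binds B plexins, and Sema3g (9.06), Sema3b (8.18) and Sema3f (4.23) are secreted and use neuropilins. Other transmembrane members were Sema6b (6.38), Sema4d (3.87), Sema6d (3.16), Sema6a (2.38), Sema4b (1.68), Sema6c (1.39) and Sema4a (1.15), and the secreted Sema3c averaged 1.92 FPKM. Sema3a, the semaphorin best known for repelling sympathetic axons, averaged 0.0776 FPKM with 11 to 40 reads per library, and Sema3e averaged 0.0467 FPKM with 2 to 18 reads. Sema5a, Sema3d, Sema5b and Sema4f averaged 0.117 to 0.676 FPKM, and Sema4g, at 0.0599 FPKM, was not tested. The levels of semaphorins in the heart thus spanned from 0.0467 to 21.5 FPKM, and secreted class 3 genes were among both the higher and the lower of them.

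All 9 plexins, the receptors of the semaphorins, passed the filter. Plxnb2 and Plxnd1, the latter known from endothelium, were the highest, and Plxnb1 (5.68 FPKM), Plxna2 (4.26), Plxna1 (3.87) and Plxna4 (1.3) were intermediate. Plxnb3 (0.51), Plxnc1 (0.497), which is the plexin that binds Sema7a, and Plxna3 (0.16) were low, with 15 to 41 reads per library for Plxna3. Sema7a therefore stood at 21.5 FPKM beside 0.497 FPKM of its plexin. The co-receptors Nrp1 and Nrp2 averaged 13.5 and 5.07 FPKM.

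Of the 14 Eph receptors only Ephb4, Epha2 (5.65 FPKM), Epha4 (3.55) and Ephb3 (1.74) averaged 1 FPKM or more. Ephb1 (0.657), Ephb6 (0.498), which lacks kinase activity, Epha7 (0.433), Epha1 (0.423) and Ephb2 (0.0606) passed the filter at lower levels. Epha3, Epha6, Epha8, Epha5 and Epha10 did not, and Epha5 had 1 read and Epha10 0 reads in the 12 libraries together, where 0 counts allow up to 3 reads. Among the ligands, Efnb2 averaged 6.42, Efna5 1.49 and Efna2 0.568 FPKM, whereas Efna4 (0.0996) and Efna3 (0.0658) were not tested. Efna1, Efna3 and Efna4 lie next to each other on chromosome 3, with 32.8 kb between Efna1 and Efna3 and 10.4 kb between Efna3 and Efna4, so the locus held 1 gene at 11.9 FPKM and 2 genes below 0.1 FPKM.

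Netrin signalling was represented by Ntn1 (14.8 FPKM), the classical chemoattractant netrin, and Ntn4 (5.14), a netrin of basement membranes, while Ntn5 averaged 0.0317 FPKM and was not tested. Their receptor Unc5b, known from endothelium, averaged 6.3 FPKM and Unc5a 0.867. Unc5c (0.0182) and Unc5d (0.00395) were not tested. Dcc, the canonical netrin receptor, had no read in any of the 12 libraries, and its relative Neo1 averaged 6.61 FPKM.

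Summed over each family, semaphorins held 62 to 88.4 FPKM in the 12 libraries and plexins 42.7 to 64.1 FPKM. Ephrins summed to 53.4 to 69.9 FPKM, Eph receptors to 26.3 to 37.9, netrins to 15.8 to 27, neuropilins to 15.2 to 25.6 and UNC5 receptors to 5.33 to 9.91 FPKM. No test was run on these sums.

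The effect of IR was asked in each genotype and as the mean of both. Over both genotypes 2 of the 49 tested genes passed the adjusted test, with Sema4c higher and Ephb4 lower in IR hearts, a share of 4.08% beside 3.49% of all 15240 tested genes. At an unadjusted p under 0.05 there were 7 of 49, or 14.3%, with 5 higher and 2 lower, beside 15.9% of all tested genes. The share of the guidance genes was therefore near that of all genes. Their median log2 difference was 0.03, against 0.0036 for all tested genes, and 31 of the 49 were higher. These values rested on Slit2-IR replicate 1, since without it the median was -0.0055, 24 of the 49 were higher and 5 (10.2%) had an unadjusted p under 0.05.

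Sema4c (ENSMUSG00000026121, chr1:36548639-36558349, minus strand) rose after IR. Its level was 8.13, 6.14 and 6.05 FPKM in the C57-non-IR libraries and 8.94, 15.3 and 13 in the C57-IR libraries. In Slit2-Tg hearts it was 3.87, 6.49 and 5.7 FPKM without IR and 8.27, 16.9 and 10.8 after IR. Each of the 6 IR libraries was higher than each of the 6 non-IR libraries, although the lowest IR value, 8.27, lay just above the highest non-IR value, 8.13.

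The means of Sema4c were 6.77 ± 1.17 FPKM without and 12.4 ± 3.23 after IR in C57BL/6J hearts, and 5.36 ± 1.34 and 12 ± 4.42 FPKM in Slit2-Tg hearts (SD, n = 3). The difference over both genotypes was 0.88 on the log2(FPKM + 1) scale (SE 0.18, adjusted p = 0.023), 0.77 in C57BL/6J hearts (SE 0.26, adjusted p = 0.318) and 1.0 in Slit2-Tg hearts (SE 0.26, adjusted p = 0.122). The difference between the genotypes in this effect was 0.23 (SE 0.36, adjusted p = 0.9998). The value over both genotypes was 0.99 without Slit2-IR replicate 1 (adjusted p = 0.0184). The adjusted p lay between 0.0505 and 0.0634 when replicate 2 or 3 of C57-non-IR, replicate 2 or 3 of C57-IR or replicate 1 of Slit2-non-IR was left out, and between 0.0103 and 0.0658 over all alternatives. Sema4c shares 334 exon bases with D430040D24Rik on the opposite strand, which held 22 to 66 reads per library and differed by -0.06 after IR (adjusted p = 0.861), and the use of strand in counting is not given in the sources used here.

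Ephb4 (ENSMUSG00000029710, chr5:137350109-137378669, plus strand), the Eph receptor of veins, fell after IR. The C57-non-IR libraries held 27.1, 22.4 and 20.6 FPKM and the C57-IR libraries 14, 18.9 and 13.6. The Slit2-non-IR libraries held 16.8, 22.6 and 22.7 FPKM and the Slit2-IR libraries 14, 15.2 and 16.4. The groups did not overlap within either genotype, but over both genotypes they did, since C57-IR replicate 2 (18.9) was above Slit2-non-IR replicate 1 (16.8).

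Mean levels of Ephb4 without and after IR were 23.4 ± 3.31 and 15.5 ± 2.97 FPKM in C57BL/6J hearts, and 20.7 ± 3.38 and 15.2 ± 1.16 FPKM in Slit2-Tg hearts (SD, n = 3). It fell by 0.49 over both genotypes (SE 0.11, adjusted p = 0.0354). The difference was -0.57 in C57BL/6J hearts (SE 0.16, adjusted p = 0.179) and -0.41 in Slit2-Tg hearts (SE 0.16, adjusted p = 0.326), and the effects of the 2 genotypes differed by 0.16 (SE 0.22, adjusted p = 0.9998). Leaving out replicate 1 or 2 of C57-non-IR, replicate 1 or 3 of C57-IR, replicate 2 or 3 of Slit2-non-IR, or replicate 1 or 2 of Slit2-IR gave an adjusted p of 0.0553 to 0.0907 for both genotypes together, with a difference of -0.50 to -0.44. For Slit2-IR replicate 1 alone it was 0.0855.

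Endothelial markers were set beside these values because Ephb4 and Sema3g are known from endothelium. Of 8 markers (Pecam1, Cdh5, Kdr, Tek, Tie1, Emcn, Egfl7 and Esam), 0 passed the adjusted test for IR over both genotypes and 0 gave an unadjusted p under 0.05. After IR 6 of the markers were lower and 2 higher over both genotypes. All 8 were lower in C57BL/6J hearts, whereas 5 were higher and 3 lower in Slit2-Tg hearts. Their sum was 246 to 294 FPKM without and 177 to 268 after IR in C57BL/6J hearts, and 187 to 252 and 187 to 277 FPKM in Slit2-Tg hearts, and none of the 8 was at 0 in any library. Ephb4 amounted to 8.41 to 9.81% of this sum in the 6 non-IR libraries and to 5.07 to 7.93% in the 6 IR libraries, which did not overlap.

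The difference of Ephb4 relative to the marker sum was -0.43 on the log2 scale, and -0.49 to -0.33 when each library was left out in turn. Relative to the same sum, Sema4c differed by 1.08, Epha2 by 0.94, Sema3g by -0.38 and Sema7a by -0.24. Sema4c amounted to 3.91 to 7.16% of the sum after IR and to 2.07 to 2.82% without IR. These ratios were added after the data had been seen, for genes chosen by their differences in the same libraries, so they are a description without a test.

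**Figure D2:**
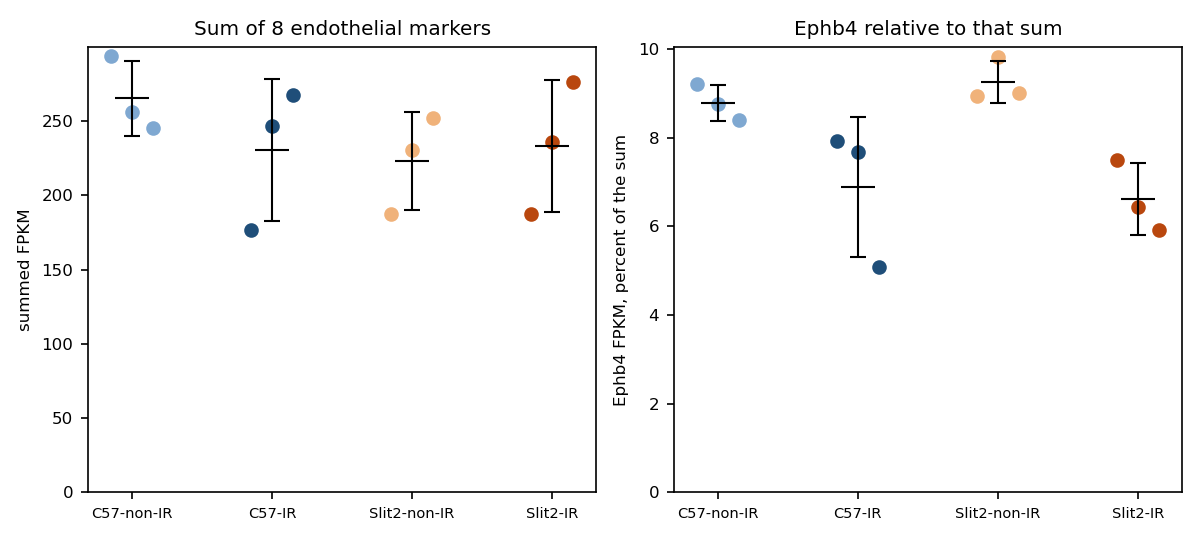
Left, summed level of 8 endothelial markers in FPKM by group. Right, Ephb4 as percent of that sum; points are libraries and bars the mean and SD of 3 hearts, and the IR libraries lie between 5.07 and 7.93%, all below the non-IR libraries at 8.41 to 9.81%.

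Epha2 (ENSMUSG00000006445, chr4:141301240-141329384, plus strand) is a receptor of Efna1. In C57BL/6J hearts its level was 4.71, 5.55 and 4.2 FPKM without and 4.55, 8.88 and 7.23 after IR. In Slit2-Tg hearts it was 2.38, 2.91 and 4.48 FPKM without and 5.42, 9.92 and 7.57 after IR. All 3 Slit2-IR libraries were above the Slit2-non-IR libraries, whereas C57-IR replicate 1 lay among the C57-non-IR libraries. Means without and after IR were 4.82 ± 0.681 and 6.88 ± 2.19 FPKM in C57BL/6J hearts, and 3.26 ± 1.09 and 7.64 ± 2.25 FPKM in Slit2-Tg hearts (SD, n = 3).

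The log2 difference of Epha2 after IR was 1.02 in Slit2-Tg hearts (SE 0.25, adjusted p = 0.11), the lowest p of the 49 genes in that comparison. With the replicate number as a block in the fit of all 12 libraries, its adjusted p was 0.0383, so that 1 of the 49 genes passed. That block also took in the C57BL/6J hearts, and the labels name no pairing, so this call rests on an assumed pairing. Without Slit2-IR replicate 1 the difference was 1.21 (adjusted p = 0.159). In C57BL/6J hearts the difference was 0.40 (SE 0.25, adjusted p = 0.76), and the effects of the genotypes differed by 0.61 (SE 0.35, adjusted p = 0.9998), and by 0.81 without Slit2-IR replicate 1 (adjusted p = 0.9999). Over both genotypes it was 0.71 (SE 0.18, adjusted p = 0.0554), just outside the threshold. The adjusted p for both genotypes was 0.041 with limma-voom on the recovered reads, and it was 0.0164, 0.0423 and 0.0439 without C57-IR replicate 1, Slit2-non-IR replicate 3 and Slit2-IR replicate 1.

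Epicardial and mesothelial genes were set beside Epha2. Of 6 such genes (Wt1, Upk3b, Upk1b, Msln, Krt8 and Krt18), 2 passed the adjusted test over both genotypes and all 6 were higher. Their sum was 2.03 to 4.15 FPKM without and 6.03 to 7.09 after IR in C57BL/6J hearts, and 0.95 to 4.51 and 3.16 to 7.09 FPKM in Slit2-Tg hearts, and none of the 6 was at 0 in every library. Over both genotypes the conditions did not overlap for Krt8 (0.0257 to 0.224 FPKM without and 0.423 to 1.32 after IR). Nor did they for Krt18 (0.103 to 0.681 and 0.833 to 1.8 FPKM). They overlapped for Wt1, Upk3b, Upk1b and Msln. The part of these genes in the level of Epha2 was not tested.

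**Figure D3:**
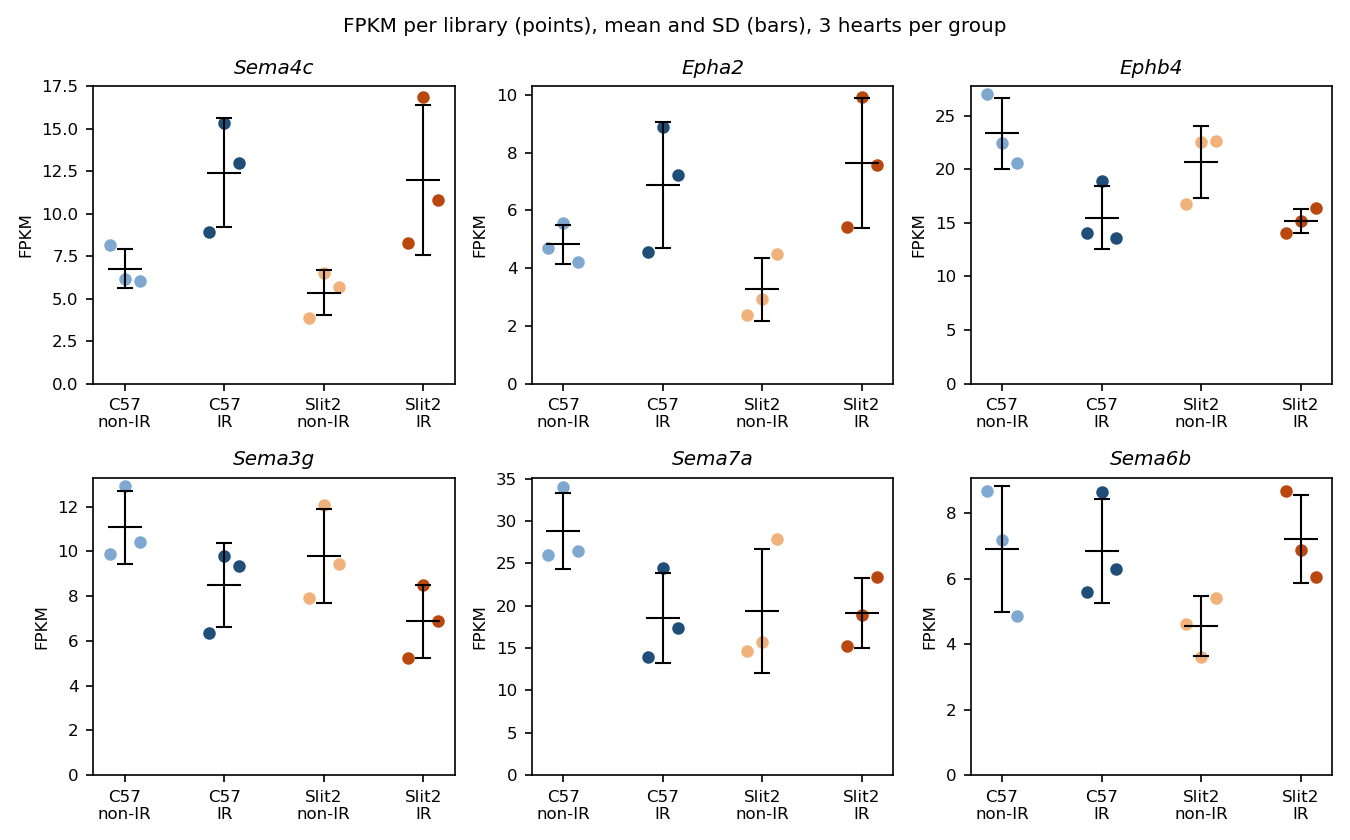
FPKM of 6 guidance genes by group; points are single libraries and bars the mean and SD of 3 hearts. Sema4c is higher in each of the 6 IR libraries than in the 6 non-IR libraries, with 8.27 the lowest and 8.13 the highest of the respective values, and Ephb4 is lower after IR in each genotype.

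Sema3g, a secreted semaphorin of arterial endothelium, had a median of 7.68 FPKM in the 6 IR libraries (5.24 to 9.8) and of 10.2 in the 6 non-IR libraries (7.91 to 12.9), which overlapped. The difference over both genotypes was -0.41 (SE 0.14, adjusted p = 0.164) and in Slit2-Tg hearts -0.46 (SE 0.20, adjusted p = 0.413). Without Slit2-IR replicate 1 these were -0.33 (adjusted p = 0.307) and -0.30 (adjusted p = 0.751), and the second then had an unadjusted p above 0.05.

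Sema6d, Sema3f and Sema3c completed the 7 genes with an unadjusted p under 0.05 for IR over both genotypes. Sema6d, which acts in cardiac development through plexin A1, had medians of 3.48 FPKM after IR (2.85 to 3.58) and 2.88 without (2.62 to 3.24), a difference of 0.16 (SE 0.06, adjusted p = 0.223). Sema3f differed by 0.31 (SE 0.14, adjusted p = 0.313), with medians of 4.53 FPKM (3.39 to 6.61) and 3.72 (2.55 to 4.29). Sema3c, a ligand known from outflow tract development, differed by 0.22 (SE 0.10, adjusted p = 0.313), with medians of 2.09 FPKM (1.58 to 2.88) and 1.74 (1.16 to 2.06). IR and non-IR libraries overlapped for all 3, each missed the adjusted threshold, and without Slit2-IR replicate 1 the unadjusted p of Sema3f and Sema3c was above 0.05. Over 18 alternatives the unadjusted p was under 0.05 in 14 for Sema6d, in 7 for Sema3f and in 6 for Sema3c.

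In C57BL/6J hearts alone, 0 of 49 genes passed the adjusted test of limma after IR, beside 0.459% of all tested genes, and limma-voom on the recovered reads also called 0. At an unadjusted p under 0.05 there were 3 of 49, or 6.12%, beside 8.96% of all tested genes, with Sema4c higher and Ephb4 and Sema7a lower. The median log2 difference of the 49 was -0.0006, against 0.0015 over all tested genes.

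Sema7a, a lipid-anchored semaphorin that signals through integrins as well as plexin C1, held 26, 34 and 26.5 FPKM in C57-non-IR and 14, 24.4 and 17.4 in C57-IR libraries, which did not overlap. The difference was -0.63 (SE 0.26, adjusted p = 0.468). It was -0.51, -0.46 and -0.60 without C57-non-IR replicate 2, C57-IR replicate 1 and C57-IR replicate 3, each with an unadjusted p above 0.05. In Slit2-Tg hearts Sema7a stood at 14.6, 15.7 and 27.8 FPKM without and 15.2, 18.9 and 23.4 after IR, which overlapped, with a difference of 0.02 (SE 0.26, adjusted p = 0.99). The effects of the genotypes differed by 0.66 (SE 0.36, adjusted p = 0.9998), so a difference between them was not shown.

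In Slit2-Tg hearts 0 of 49 genes passed the adjusted test of limma without the block, beside 0.525% of all tested genes, and limma-voom also called 0. At an unadjusted p under 0.05 there were 8 of 49, or 16.3%, beside 11.2% of all tested genes, 6 of them higher after IR and 2 lower. Besides Epha2, Sema4c, Ephb4 and Sema3g these were Unc5a, Sema6b, Ephb6 and Sema4f. The median log2 difference of the 49 was 0.04, against 0.0053 over all tested genes, and 30 of the 49 were higher. Without Slit2-IR replicate 1 the median was -0.008, 24 of the 49 were higher and 4 (8.16%) had an unadjusted p under 0.05, and without Slit2-non-IR replicate 2 there were 3 (6.12%).

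Unc5a, a netrin receptor, held 0.717, 0.541 and 0.872 FPKM in Slit2-non-IR and 1.1, 1.01 and 0.926 in Slit2-IR libraries, without overlap, a difference of 0.24 (SE 0.08, adjusted p = 0.251). Sema6b, a transmembrane ligand of A plexins, held 4.63, 3.6 and 5.42 FPKM without and 8.7, 6.89 and 6.05 after IR, also without overlap, a difference of 0.57 (SE 0.21, adjusted p = 0.312). In C57BL/6J hearts the differences of these genes were -0.0033 for Unc5a and -0.0006 for Sema6b, and the effects of the genotypes differed by 0.24 for Unc5a (SE 0.11) and 0.57 for Sema6b (SE 0.30), with an adjusted p = 0.9998 for each. Unc5a had the lowest p of the 49 genes for that difference.

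Ephb6 differed by 0.20 (SE 0.08, adjusted p = 0.372) and Sema4f, at 0.0364 to 0.0738 FPKM without and 0.0931 to 0.221 after IR, by 0.14 (SE 0.06, adjusted p = 0.416). Sema4f rested on few reads, 4, 9 and 6 in the Slit2-non-IR libraries and 10, 20 and 26 in the Slit2-IR libraries. Its unadjusted p was under 0.05 in 10 of 18 alternatives. Without Slit2-IR replicate 1 the differences in Slit2-Tg hearts were 0.21 for Unc5a, 0.44 for Sema6b, -0.36 for Ephb4, 0.13 for Ephb6, 0.18 for Sema4f and 1.22 for Sema4c, and the unadjusted p of Sema6b, Ephb4 and Ephb6 was then above 0.05. Without Slit2-non-IR replicate 2 the differences were 0.16 for Unc5a and 0.44 for Sema6b, both with an unadjusted p above 0.05.

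**Figure D4:**
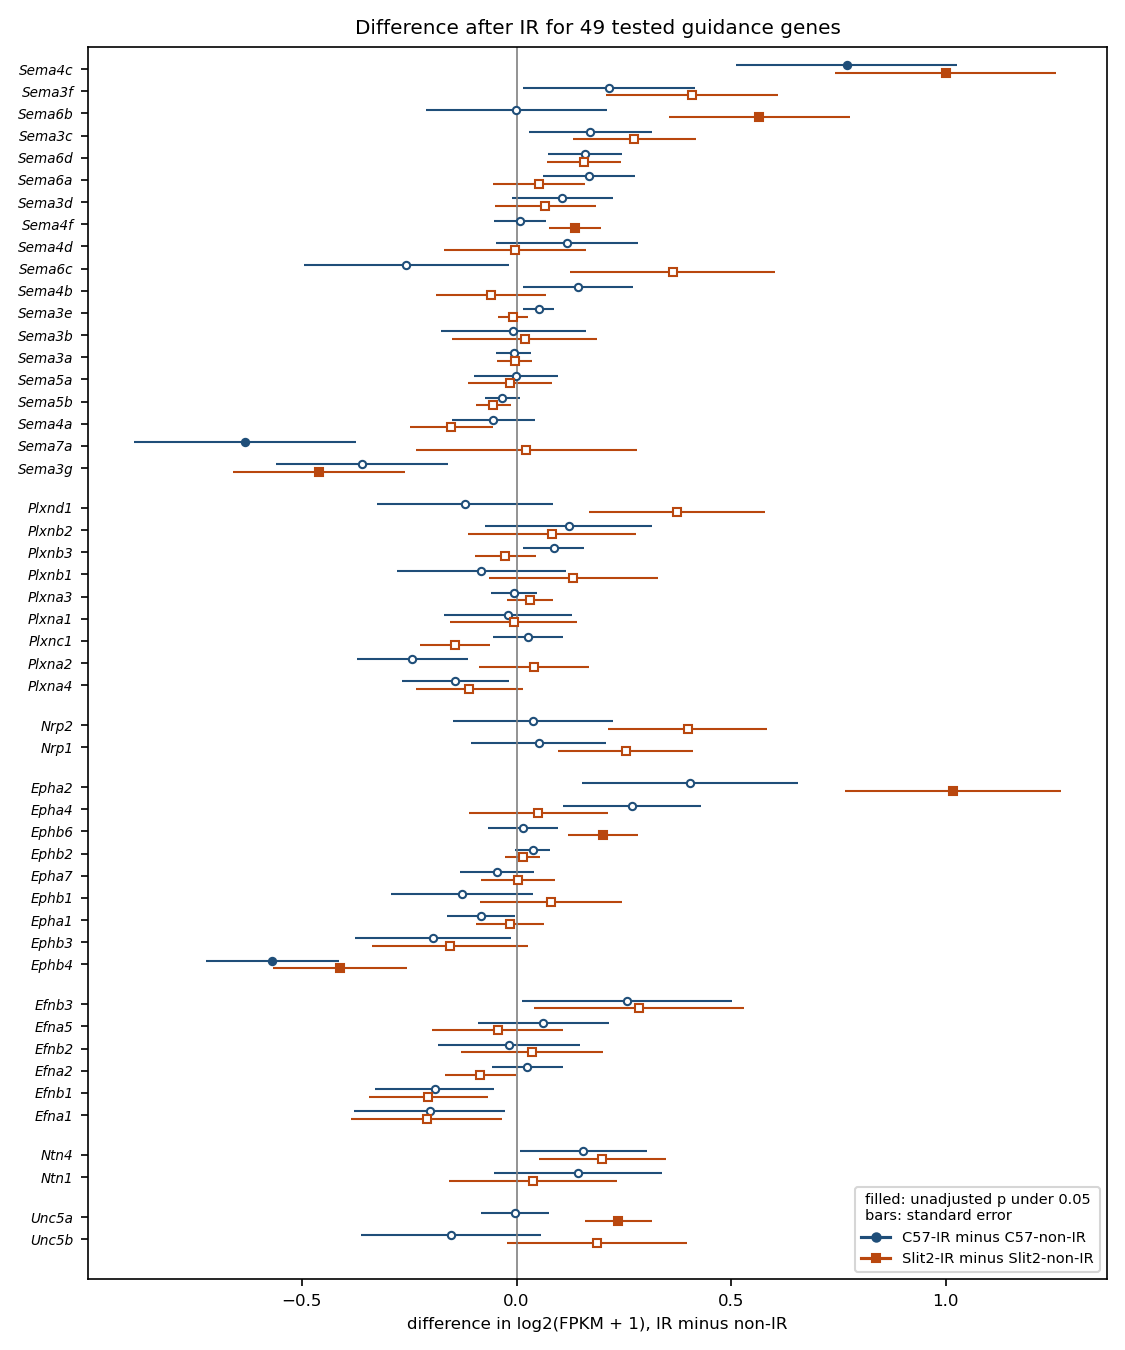
Difference in log2(FPKM + 1) between IR and non-IR hearts for the 49 tested genes, in C57BL/6J (circles) and Slit2-Tg hearts (squares); bars are standard errors and filled symbols an unadjusted p under 0.05. Sema4c lies at 0.77 and 1.0, Ephb4 at -0.57 and -0.41, and most of the other genes near 0.

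Slit2-Tg hearts were compared with C57BL/6J hearts without IR, after IR and as the mean of both. The line was made in C57 × CBA F1 oocytes, so the transgene and any remaining CBA genome cannot be told apart here. With limma, 0 of 49 genes passed the adjusted test in each of the 3 comparisons, and likewise 0 with limma-voom on the recovered reads. The background of all tested genes was 0.0394% without IR, 0.0459% after IR and 0.131% over both conditions. At an unadjusted p under 0.05 there were 3 genes (6.12%) without IR beside 3.19% of all tested genes, 3 (6.12%) after IR beside 3.16%, and 5 (10.2%) over both conditions beside 4.13%. Leaving out Slit2-IR replicate 1 left 1 (2.04%) after IR and 2 (4.08%) over both conditions.

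Without IR, Efna2 was higher and Sema6b and Sema7a were lower in Slit2-Tg hearts. Efna2, a lipid-anchored ephrin, held 0.441, 0.5 and 0.461 FPKM in C57-non-IR and 0.679, 0.732 and 0.686 in Slit2-non-IR libraries, without overlap, a difference of 0.21 (SE 0.08, adjusted p = 0.9995). These values rest on few reads, 13 to 37 in each of the 12 libraries, and with limma-voom on the reads the unadjusted p was above 0.05. Sema6b, at 8.68, 7.19 and 4.87 FPKM in C57-non-IR libraries, differed by -0.49 (SE 0.21, adjusted p = 0.9995), and without C57-non-IR replicate 1 by -0.33. Sema7a differed by -0.60 (SE 0.26, adjusted p = 0.9995), and without Slit2-non-IR replicate 1 by -0.44. Without those libraries the unadjusted p was above 0.05. Without C57-non-IR replicate 1, 0 of the 49 genes had an unadjusted p under 0.05. Over 19 alternatives Sema7a was under that threshold in 12, and Efna2 and Sema6b in 15 each. The groups overlapped for Sema6b and Sema7a. In the same comparison 7 of the 8 endothelial markers were lower and 1 higher (median -0.215). All 7 markers of vessel wall cells, such as Acta2 and Pdgfrb, were lower (median -0.326). All 7 fibroblast markers, such as Col1a1 and Dcn, were higher (median 0.164). With limma 0 markers of each list passed the adjusted test, and their part in these differences was not tested.

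After IR, Sema6c, Ephb6 and Plxnb1 were higher in Slit2-Tg hearts. Sema6c, a transmembrane semaphorin, held 1.09, 0.957 and 0.487 FPKM in C57-IR and 3.64, 1.88 and 1.06 in Slit2-IR libraries, which overlapped, a difference of 0.73 (SE 0.24, adjusted p = 0.9996). The highest value was that of Slit2-IR replicate 1, the library with the high atrial sum, and without it the difference was 0.42. Ephb6 held 0.334, 0.524 and 0.448 FPKM in C57-IR and 0.849, 0.627 and 0.559 in Slit2-IR libraries, without overlap, a difference of 0.22 (SE 0.08, adjusted p = 0.9996), and of 0.15 without that library. Plxnb1, the receptor of Sema4d, held 5.75, 4.01 and 4.08 FPKM in C57-IR and 7.53, 8.04 and 5.23 in Slit2-IR libraries, with a difference of 0.50 (SE 0.20, adjusted p = 0.9996) that was 0.43 without that library. Without it the unadjusted p of Ephb6 and Plxnb1 was above 0.05.

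Over both conditions the 5 genes were Plxnb1, Plxna1, Efna2, Sema6c and Ephb6, all higher in Slit2-Tg hearts. Plxnb1 had a median of 6.6 FPKM in the 6 Slit2-Tg libraries (4.86 to 8.35) and of 4.56 in the 6 C57BL/6J libraries (4.01 to 5.75), a difference of 0.39 (SE 0.14). Plxna1, a receptor of class 6 semaphorins, had medians of 4.43 (3.53 to 5.13) and 3.42 FPKM (2.83 to 3.95), a difference of 0.29 (SE 0.11). For both plexins the libraries of the genotypes overlapped.

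The differences of the remaining genes over both conditions were 0.16 for Efna2 (SE 0.06), 0.42 for Sema6c (SE 0.17) and 0.13 for Ephb6 (SE 0.06). Each of the 5 had an adjusted p = 0.999. Without Slit2-IR replicate 1 the differences were 0.36 for Plxnb1, 0.25 for Plxna1, 0.13 for Efna2, 0.26 for Sema6c and 0.09 for Ephb6, and the last 3 had an unadjusted p above 0.05. Over both conditions 33 of the 49 genes were higher in Slit2-Tg hearts, with a median log2 difference of 0.04 against -0.0013 over all tested genes. This tally and median include Slit2-IR replicate 1 and are not given without it, so they do not show a rise shared by the Slit2-Tg libraries.

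**Figure D5:**
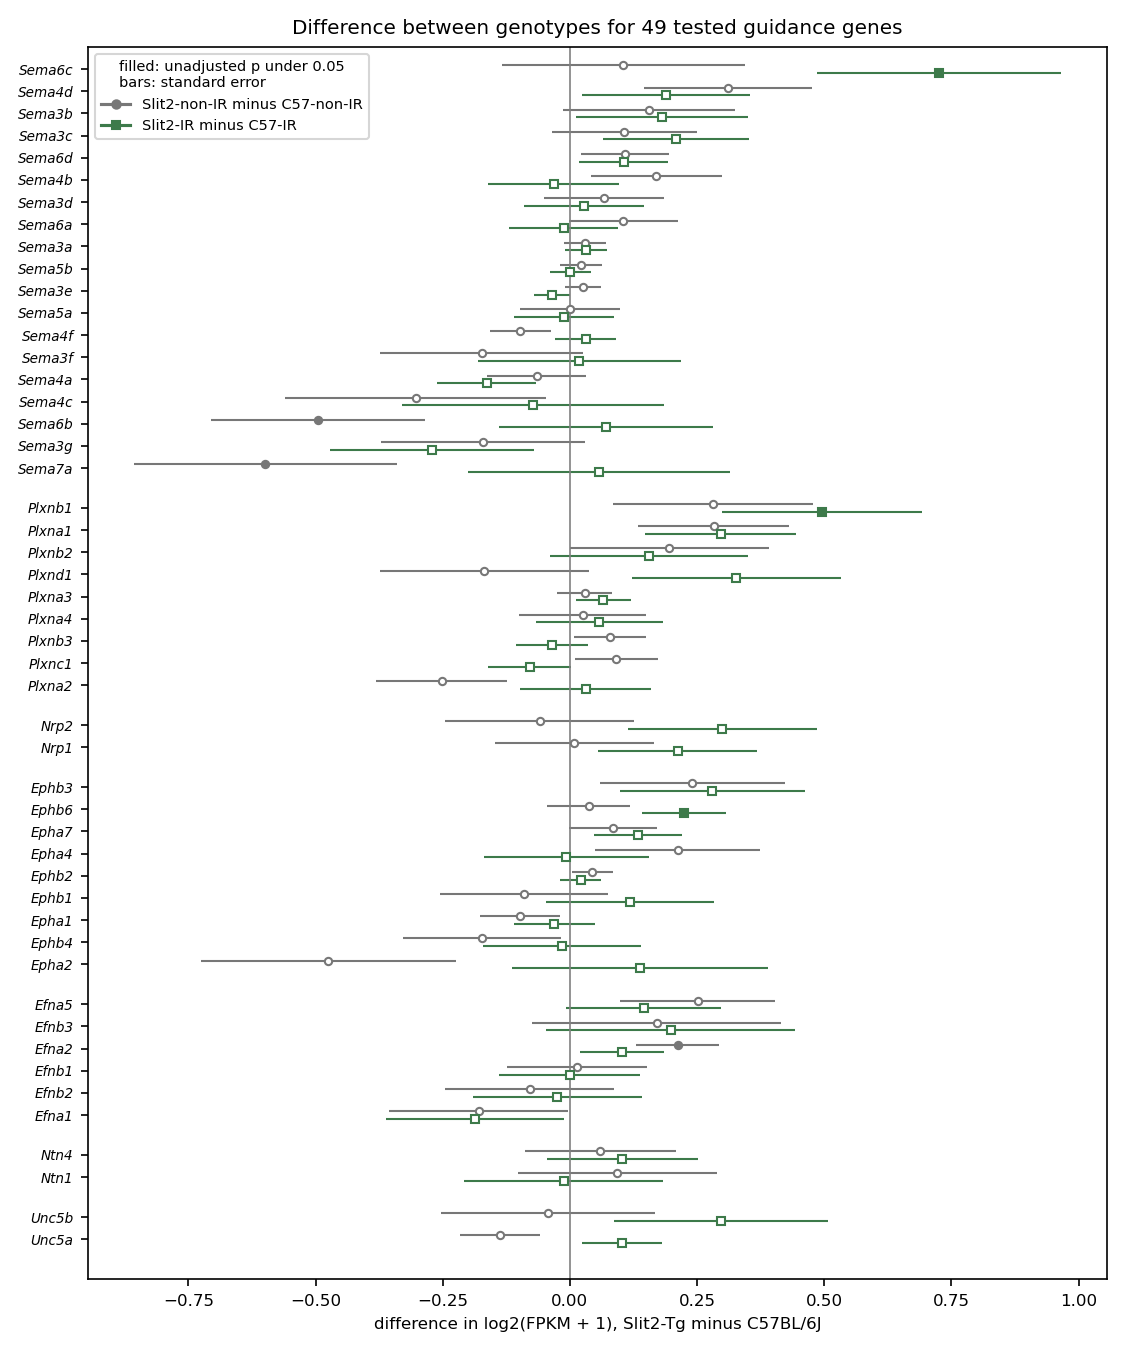
Difference in log2(FPKM + 1) between Slit2-Tg and C57BL/6J hearts for the 49 tested genes, without IR (circles) and after IR (squares); bars are standard errors and filled symbols an unadjusted p under 0.05. Sema6c lies at 0.73 after IR and Sema7a at -0.60 without IR, and no gene passed the adjusted test.

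Whether Slit2 changed the response to IR was asked with the interaction of genotype and IR. With limma, 0 of 49 genes passed the adjusted test, beside 0.0% of all tested genes, and 0 of 49 had an unadjusted p under 0.05, beside 1.86% of all tested genes. The latter count was 1, Epha2, without Slit2-IR replicate 1. It was also 1 with at least 10 reads in every library, with the replicate block, with TMM scaling and without C57-non-IR replicate 3. Limma-voom on the recovered reads called 0 genes as well, and 0 at an unadjusted p under 0.05. For Sema4c, Ephb4 and Sema3g the effects of IR in the genotypes thus differed by less than their standard errors, and those of Epha2, Sema7a and Sema6b by more, with the values given above.

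Cytoplasmic partners and co-receptors of these receptors were followed as a list of 59 genes, of which 58 were found and 54 tested. Over both genotypes 3 of the 54 rose after IR and 0 fell, beside 3.49% of all tested genes that passed, and the median log2 difference was 0.03 against 0.0036 over all tested genes. In each genotype alone 1 of the 54 passed, Rnd1, beside 0.459% of all tested genes in C57BL/6J and 0.525% in Slit2-Tg hearts. The 3 were Rnd1, Rnd3 and Vasp. Rnd1 and Rnd3 are proteins that bind the cytoplasmic part of plexins, and Vasp is a regulator of actin filament growth downstream of guidance receptors.

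Rnd1 stood at 2.02, 1.87 and 2.03 FPKM in C57-non-IR and at 8.92, 26.2 and 18.8 in C57-IR libraries. In Slit2-Tg hearts it stood at 0.78, 1.46 and 2.18 FPKM without and at 16.6, 21.6 and 12.6 after IR, so that the lowest IR value was well above the highest non-IR value. The difference was 2.56 in C57BL/6J hearts (SE 0.33, adjusted p = 0.0143), 2.87 in Slit2-Tg hearts (SE 0.33, adjusted p = 0.00756) and 2.71 over both (SE 0.23, adjusted p = 0.000322). Over the alternatives the adjusted p reached 0.0956, 0.0516 and 0.00231 in this order. The call in C57BL/6J hearts was lost without any 1 of the 3 C57-non-IR libraries or without replicate 2 or 3 of C57-IR, and the call in Slit2-Tg hearts without replicate 1 or 2 of Slit2-IR. The effects of the genotypes differed by 0.31 (SE 0.47, adjusted p = 0.9998).

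Rnd3 differed by 1.01 over both genotypes (SE 0.22, adjusted p = 0.0293) and by 1.15 in Slit2-Tg hearts (SE 0.31, adjusted p = 0.137). In Slit2-Tg hearts it passed with the replicate block (adjusted p = 0.0467), under the same assumed pairing. Its means without and after IR were 5.45 ± 1.02 and 11.5 ± 5.76 FPKM in C57BL/6J hearts, and 5.36 ± 0.858 and 13.6 ± 5.28 FPKM in Slit2-Tg hearts (SD, n = 3). Leaving out Slit2-IR replicate 1 gave an adjusted p of 0.0637 over both genotypes. Vasp differed by 0.39 over both genotypes (SE 0.09, adjusted p = 0.0472), with 0.0315 to 0.12 over the alternatives. Only 1 of the 3 genes passed over both genotypes when any 1 of the 6 non-IR libraries or Slit2-IR replicate 2 was left out. Between Slit2-Tg and C57BL/6J hearts 0 of the 54 passed the adjusted test of limma in any comparison, and after IR the lowest p belonged to Hfe2, a repulsive guidance molecule family member that takes part in iron metabolism, at -0.32 (SE 0.11, adjusted p = 0.9996), and to Arhgef16 at -0.11 (SE 0.04, adjusted p = 0.9996).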

How the data were processed

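RNA of 12 mouse hearts, 3 per group, was made into NEBNext Ultra libraries and sequenced as pairs on an Illumina HiSeq. The labels give the genotype, while the condition follows from letters in the sample titles. The deposited values are FPKM made by the authors for each gene, with GRCm38 coordinates, and the submitters' processing notes name HISAT2 and mm10. The counting tool, annotation release and use of strand are not given in the sources used here. In 100% of values FPKM times length came out as whole reads (tolerance 0.05 reads), which were thus recovered, 16601154 to 24841291 per library. The steps followed the size factors with a spread of 9.3e-12, so the libraries had been normalized together. There were 0 value columns left unused.

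Since FPKM is not a count, limma 3.58.1 (R 4.3.3) with a variance trend was fitted on log2(FPKM + 1) for all 12 libraries and 7 contrasts, which understates changes of low genes. The filter kept 15240 genes, those that reached 10 reads, scaled to the median library, in 3 or more libraries and 15 reads over all. Benjamini-Hochberg adjustment ran over these 15240 genes, and genes under 0.05 passed. Alternatives were a pseudocount of 0.1, other filters, the compared libraries alone, a replicate block, TMM scaling, limma-voom on recovered reads, and each library left out. The fits were tested on simulated data.

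A fold change is printed for a family member with an unadjusted p under 0.05 in a contrast, and for a listed partner gene that passed the adjusted test. Values of the same gene in other contrasts stand beside it. For Slit2 after IR, the 2 partner genes with an unadjusted p under 0.05 are also printed. The plan named the 3 partner genes with the lowest p of each contrast, and these are not all printed. The members and lists were chosen with earlier results of these data known. Replicate numbers come from the labels, which name no shared litter, day or batch. Same-numbered libraries deviated together with correlations of 0.143 to 0.294 for IR in Slit2-Tg hearts and 0.154 to 0.362 for Slit2 after IR, over 0.1 in every pair, and not in every pair elsewhere. Libraries of different numbers were not compared in this way, and the block was fitted on all 12 libraries together. P-values measure the spread between hearts of a group.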

Additional observations from a re-analysis of the deposited data

How the results depend on the processing

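The 29 differences of family members with an unadjusted p under 0.05 kept their direction under all of 538 alternative values, and 0 reversed. They were chosen by that p in the same libraries that the alternatives reuse. A kept direction was therefore likely from the start and is not independent support. Other differences printed beside them were not followed in this way. Counts of genes past the adjusted threshold moved as follows. For IR over both genotypes, 2 family members became 0 with no filter beyond 1 read, 3 with at least 10 reads in every library, 3 with limma-voom on recovered reads and 4 with the replicate block, and leaving out each library gave 0 to 2, with 0 without replicate 2 of C57-non-IR or replicate 3 of C57-IR. For IR in Slit2-Tg hearts the block gave 1 member instead of 0. Of the partner genes, 1 in C57BL/6J hearts became 0 with no filter beyond 1 read and with the compared libraries alone, and leave-one-out gave 0 to 1. In Slit2-Tg hearts 1 became 2 with the block, and leave-one-out gave 0 to 1, with 0 without Slit2-IR replicate 1 or 2. Over both genotypes 3 became 1 with no filter beyond 1 read, and leave-one-out gave 1 to 4, with 4 without C57-IR replicate 1. A planned count-model test of the recovered reads (quasi-likelihood) was left out of the alternatives, since the deposited values are FPKM. The less strict filter tests more genes, and leaving out a library leaves fewer samples; other causes were not tested. Whether the replicate numbers mark a batch was not tested, since libraries of different numbers were not compared. Same-numbered C57BL/6J hearts without and after IR correlated at 0.295, 0.126 and 0.0833. Replicate 1 correlated at 0.285 to 0.324 in every pairing of groups examined. For IR over both genotypes the block added Epha2 (adjusted p = 0.0159) and Sema3g (adjusted p = 0.00805) to the calls, under the same assumed pairing. The block changed no other call of a family member. Genes with few reads, such as Sema3e and Ephb2, allow no statement on small differences.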

Other observations

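Some family members lie near others or overlap other genes, and values of those that do are less certain. Besides Sema4c, Epha1 shares 236 exon bases with Zyx on the opposite strand, which held 1008 to 2482 reads per library against 22 to 49 for Epha1. Unc5a shares 34 exon bases with Hk3 (22 to 46 reads), and Ephb4 shares 33 with Zan (0 to 4 reads). Sema3b and Sema3f are 72.3 kb apart on chromosome 9 and averaged 8.18 and 4.23 FPKM.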
